A study of Mus musculus with 8 samples.

Results

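The levels of 10 genes of hepatic lipid uptake, fatty acid binding and lipid droplet handling were followed through mouse liver with and without HRD1 in the fasted and the refed state. The genes were taken by symbol from the count files of all 8 samples. They were Pparg, Cd36, Lpl, Vldlr, Fabp4, Fabp7, Plin4, Cidea, Cidec and Cideb, 10 of the 23337 genes in the files. All 10 passed the filter on low counts and were among the 14328 genes tested.

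HRD1 (gene symbol Syvn1) is an E3 ubiquitin ligase of the endoplasmic reticulum, and the study compared livers of C57BL/6 mice at 12 weeks of age that were wild type (WT) or carried a liver deletion of HRD1 (HRD1Alb, genotype given as Hrd1-/-). Mice were fasted overnight, or fasted overnight and then refed for 4 h, and RNA was sequenced from 2 samples in each of the 4 groups. HRD1Alb mice carry floxed HRD1 alleles that are deleted by Cre under the albumin promoter from early liver development on. The deletion is thus directed to cells in which that promoter is or was active, hepatocytes above all. The sources do not say which other cells of the liver keep the gene. The mice called WT are littermates without Cre. The sources name a refeeding step in the protocol of every sample, so the fasted groups rest on the sample labels, and no source says that the 2 samples of a group came from separate animals: p-values measure the spread between these samples.

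Circulating fatty acids and triglyceride-rich lipoproteins reach liver cells through surface proteins and lipases, are carried inside the cell by small binding proteins, and are stored as triglyceride in droplets whose surface proteins set how droplets grow and how readily they are broken down. PPARG is the nuclear receptor that drives this set of genes in adipose tissue, and its level in the liver is usually low. In steatotic liver Pparg, Cd36, Cidea, Cidec and Plin4 are known to be raised.

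Total counts ranged from 40210576 to 49117080 per sample, so that 3 counts correspond to between 0.0611 and 0.0746 CPM, the count as a share of the library total on the usual scale. Levels are given as CPM scaled by the trimmed mean of M values (TMM), and differences as log2 fold changes with their standard error (SE) and the adjusted p of edgeR's quasi-likelihood test over all 14328 genes, with a gene called at an adjusted p under 0.05. Syvn1 was at 111 and 99.8 CPM in fasted WT and at 32.6 and 31.5 CPM in fasted HRD1Alb samples, a log2 difference of -1.72 (SE 0.56, adjusted p = 0.17). In refed liver it was at 637 and 305 CPM in WT and at 453 and 132 CPM in the libraries labelled HRD1Alb, and these overlapped (log2 difference -0.69, SE 0.55, adjusted p = 0.39). The paper reports the loss of HRD1 mRNA and protein from HRD1Alb liver, which these counts do not show. The deleted exons are not given in the sources used here. A count over the whole gene can include retained exons, which was not tested, so this value does not check the deletion. The refed groups rest on their labels, here and in all refed comparisons. The 2 refed HRD1Alb libraries differed from each other along exon length. The log ratio of replicate 2 to replicate 1 fell with exon length (Spearman rho -0.58 across 12943 genes, which are not independent replicates). In the other 3 groups this rho was between -0.11 and 0.03. The ratio does not tell which of the 2 libraries departed.

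Set per length, as CPM per kilobase of exon, the members spanned a wide range of levels, and the order changed with genotype and feeding. In fasted WT liver Cidec was the highest at 82.7 ± 14.3 (SD, n = 2), followed by Cideb at 36.8 ± 2.85 and Cd36 at 22.1 ± 2.66. Fabp4, Lpl and Pparg came next at 6.73, 6.73 and 6.09 CPM per kilobase, and these neighbours did not differ beyond the spread of their samples. Plin4, Fabp7, Vldlr and Cidea followed, with Cidea at 0.066. In fasted HRD1Alb liver Cd36 stood first at 109.8 ± 19.5 CPM per kilobase, above both samples of Cidec at 45.0 ± 9.17, and Lpl at 26.5 ± 0.57 had come close to Cideb at 27.4 ± 0.34. In refed WT liver Cideb was the highest at 39.8 ± 0.74, ahead of Cd36 at 30.8 ± 4.07 and Cidec at 21.8 ± 5.86. In refed HRD1Alb liver the first 3 places went to Cd36 at 73.5 ± 13.6, Lpl at 33.1 ± 2.48 and Fabp4 at 23.0 ± 8.27, with Fabp4 and Cideb (22.5 ± 0.007) overlapping. Fabp7 and Plin4 overlapped in fasted HRD1Alb and refed WT liver, as did Plin4 and Vldlr in fasted HRD1Alb and Pparg and Fabp7 in refed HRD1Alb liver.

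**Figure D1:**
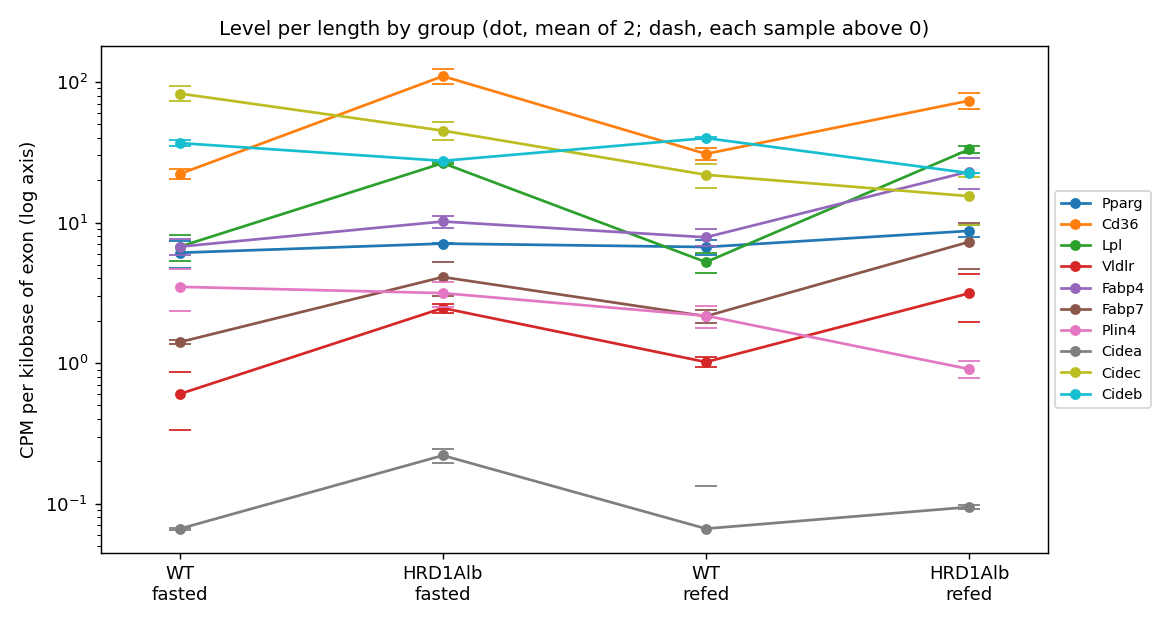
Level of the 10 genes by group, as CPM per kilobase of exon on a log axis. Dots joined by lines are means of 2 samples and dashes are the samples above 0 (Cidea was at 0 in 1 refed WT sample). Cidec leads in fasted WT, Cd36 in both HRD1Alb groups and Cideb in refed WT liver.

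Pparg, the nuclear receptor itself, had group means from 14.5 CPM in fasted WT to 20.7 CPM in refed HRD1Alb liver. It was at 11.3 and 17.7 CPM in fasted WT and at 17.0 and 16.6 CPM in fasted HRD1Alb samples, and the HRD1Alb values fell inside the WT range. In refed liver it was at 14.0 and 17.9 CPM in WT and at 22.7 and 18.7 CPM in HRD1Alb samples, with both HRD1Alb samples above both WT samples. The log2 difference HRD1Alb minus WT was 0.22 (SE 0.25, adjusted p = 0.72) in fasted and 0.38 (SE 0.25, adjusted p = 0.31) in refed liver, and Pparg was not called in any comparison. Without fasted WT replicate 1 the fasted difference was -0.07. The annotation places Pparg on chromosome 6 from 115360951 to 115490399 on the plus strand (GRCm38), where an antisense gene, Gm44079, lies within it, and the files do not state whether counting used strand.

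Cd36, the scavenger receptor that takes up long-chain fatty acids and is also abundant on macrophages, was higher in HRD1Alb liver in both states. It was at 71.6 and 84.9 CPM in fasted WT samples and at 437 and 339.7 CPM in fasted HRD1Alb samples. In refed liver it was at 98.6 and 119 CPM in WT and at 294 and 226 CPM in HRD1Alb samples. All 4 HRD1Alb samples lay above all 4 WT samples, and the distance was narrower in the refed state, where WT values were higher and HRD1Alb values lower. Cd36 rose by 2.31 on the log2 scale in fasted liver (SE 0.23, adjusted p = 0.014), which is 4.96-fold, and by 1.26 in refed liver (SE 0.22, adjusted p = 0.019), which is 2.39-fold. In bulk liver RNA, fewer or more cells of one type and less or more RNA per cell cannot be told apart.

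Promoters from the RefSeq promoter table (GRCm38.p6) were scanned for 7 of the 10 members. The scan covered the 250 bases before each start and took only matches to every stated letter. Those of Lpl, Fabp4 and Cidea were not scanned. The stretch before a RefSeq start of Cd36 is shown because it holds a nuclear receptor half-site, AGGTCA, outside annotated exons on the strand opposite to the gene. Among the 7, only Cd36 and Fabp7 held it outside annotated exons. Whether the half-site bears on their levels was not tested. A match describes the letters and does not show binding. On either strand AGGTCA occurs in 14.0% of the 32851 promoters of the table. The doubled element bound by PPAR receptors, AGGTCA repeated after 1 base of any kind, occurs in 0.0335% and was in none of the 7. These exact letters are so rare that their absence from 7 genes tells nothing about those genes. Looser forms of the element and other stretches were not scanned. Pparg also held AGGTCA, 28 and 9 bases before its starts and inside annotated exons. The match in Cd36 begins 228 bases before the start. Capitals mark it as it reads on the gene's strand, at chr5:17835897-17836146 on the minus strand:

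Cd36: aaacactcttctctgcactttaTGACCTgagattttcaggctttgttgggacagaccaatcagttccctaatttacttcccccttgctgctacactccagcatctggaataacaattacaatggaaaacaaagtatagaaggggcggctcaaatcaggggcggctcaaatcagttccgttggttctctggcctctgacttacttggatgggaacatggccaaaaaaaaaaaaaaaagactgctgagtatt

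Lpl (chromosome 8, 68880491 to 68907448, plus strand), lipoprotein lipase, releases fatty acids from circulating triglyceride and is expressed at low levels in adult hepatocytes and more strongly in macrophages. It was at 21.8 and 33.5 CPM in fasted WT and at 107 and 111 CPM in fasted HRD1Alb samples. After refeeding it was at 17.95 and 25.1 CPM in WT and at 143 and 129 CPM in HRD1Alb samples. The 4 HRD1Alb samples lay close together and far above the WT samples in both states. Lpl rose 3.93-fold in fasted liver (log2 1.98, SE 0.26, adjusted p = 0.027) and 6.33-fold in refed liver (log2 2.66, SE 0.26, adjusted p = 0.0069), the largest refed difference among the 10 genes.

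Vldlr, the very-low-density lipoprotein receptor, which binds triglyceride-rich particles and works together with lipoprotein lipase, had low counts in WT liver. It was at 2.79 and 7.23 CPM in fasted WT and at 18.9 and 22.0 CPM in fasted HRD1Alb samples. Refed levels were 9.11 and 7.80 CPM in WT and 35.9 and 16.3 CPM in HRD1Alb samples. Every HRD1Alb sample was above every WT sample, but the WT samples differed among themselves when fasted and the HRD1Alb samples when refed. The log2 difference was 2.03 in fasted (SE 0.50, adjusted p = 0.098) and 1.63 in refed liver (SE 0.49, adjusted p = 0.072), so Vldlr was not called in either. With offsets for exon length, which remove a length trend from each library, it passed in both (adjusted p = 0.037 in fasted and 0.019 in refed liver, where the log2 difference was 1.92). TGATGNAA, the composite element read by ATF4 and C/EBP factors, is held by 3.45% of promoters on either strand. This share is per start, and Vldlr, Pparg and Cidec each have further starts. Among the promoters of the 7 genes scanned, the only match lies before a start of Vldlr. It is shown with its flanks, capitals marking the match on the opposite strand, at chr19:27216809-27216838 on the plus strand, inside an annotated exon:

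Vldlr: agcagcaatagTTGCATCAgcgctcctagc

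**Figure D2:**
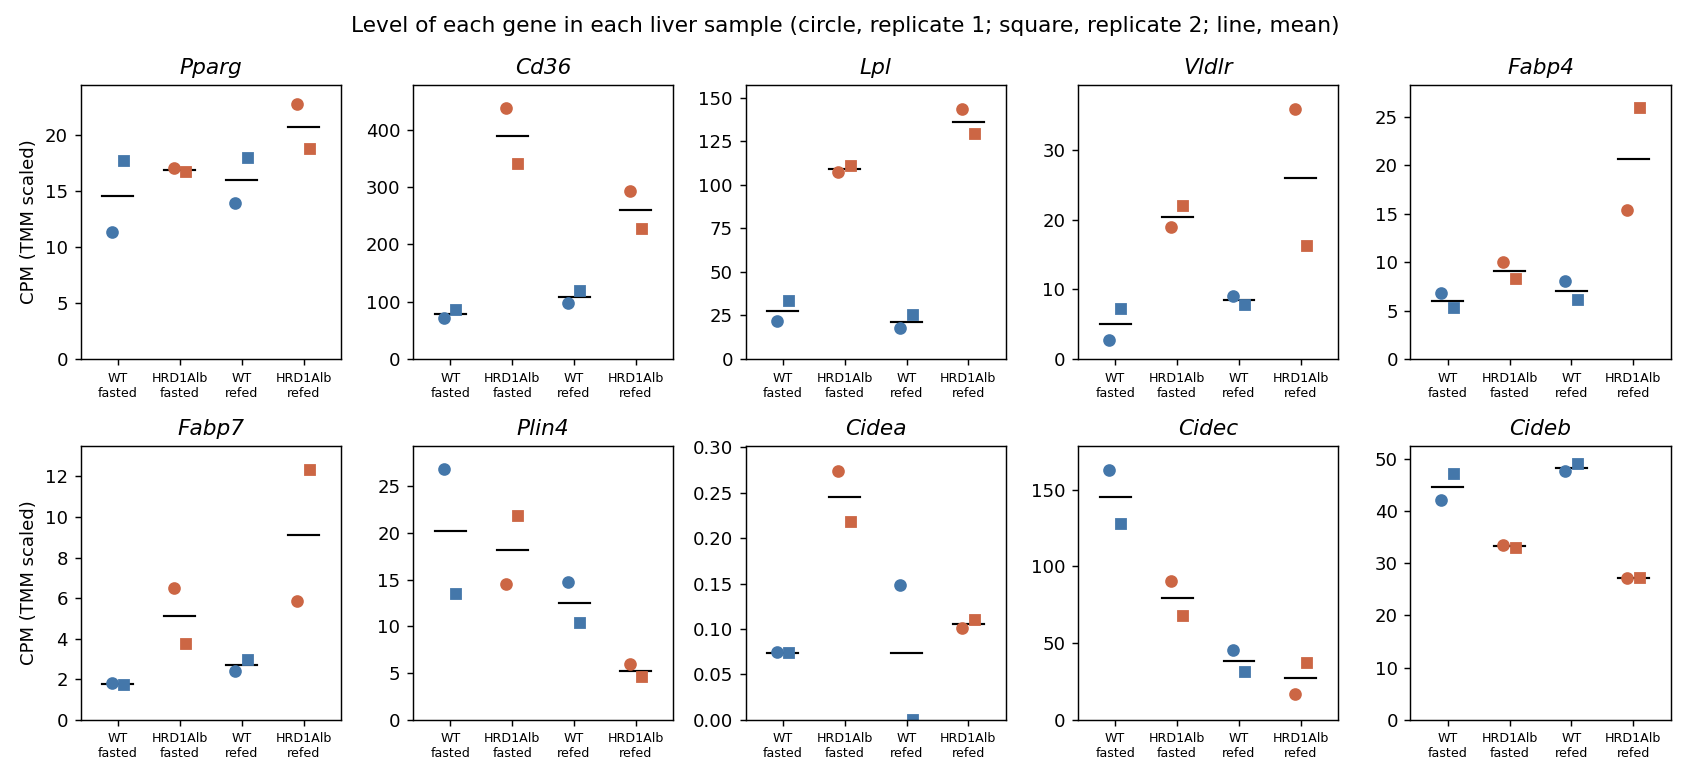
Level of each of the 10 genes in each sample, as TMM-scaled CPM on axes that start at 0, with circles for replicate 1, squares for replicate 2 and a line for the mean of 2. Cd36, Lpl and Vldlr are higher in all 4 HRD1Alb samples than in all 4 WT samples, and Cideb is lower in all 4.

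Fabp4 (chromosome 3, 10204088 to 10208576, minus strand), a fatty acid binding protein of adipocytes and macrophages, was at 6.78 and 5.28 CPM in fasted WT and at 10.01 and 8.21 CPM in fasted HRD1Alb samples. Its refed levels were 8.0 and 6.07 CPM in WT and 15.4 and 25.9 CPM in HRD1Alb samples. The groups did not overlap in either state, and the gap was narrow when fasted. Fabp4 rose 2.93-fold in refed liver (log2 1.55, SE 0.30, adjusted p = 0.026), and its fasted difference of 0.59 (SE 0.30, adjusted p = 0.35) was not called.

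Fabp7, the brain-type fatty acid binding protein, which resting adult liver expresses at a low level, was at 1.82 and 1.70 CPM in fasted WT and at 6.51 and 3.72 CPM in fasted HRD1Alb samples. After refeeding the values were 2.42 and 2.97 CPM in WT and 5.86 and 12.3 CPM in HRD1Alb samples. Both HRD1Alb samples were above both WT samples in each state, with the WT pairs tight and the HRD1Alb pairs wide. Fabp7 rose 3.37-fold in refed liver (log2 1.75, SE 0.42, adjusted p = 0.040), whereas the fasted difference of 1.54 (SE 0.42, adjusted p = 0.12) did not pass. The half-site of Fabp7, again TGACCT on the gene's strand, begins 171 bases before the start and stands in capitals in the sequence at chr10:57784673-57784880 on the plus strand:

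Fabp7: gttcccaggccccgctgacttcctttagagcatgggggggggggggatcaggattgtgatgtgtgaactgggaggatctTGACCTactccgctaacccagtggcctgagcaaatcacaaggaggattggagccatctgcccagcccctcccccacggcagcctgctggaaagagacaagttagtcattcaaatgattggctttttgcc

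Fabp4 and Fabp7 have short exon models (896 and 1250 bases) and Vldlr a long one (8308 bases). Values in refed HRD1Alb replicate 2 fell with length relative to replicate 1. In replicate 2 both Fabp genes were the higher of the pair and Vldlr the lower. With offsets for exon length the refed log2 differences became 0.93 for Fabp4 (adjusted p = 0.031) and 1.22 for Fabp7 (adjusted p = 0.030). Without that library they were 1.13 for Fabp4 (adjusted p = 0.016), 1.12 for Fabp7 (adjusted p = 0.0505, just above the threshold) and 2.08 for Vldlr (adjusted p = 0.013). Without the other refed HRD1Alb library, replicate 1, they were 1.87 for Fabp4, 2.19 for Fabp7 and 0.94 for Vldlr (adjusted p = 0.099). Cd36 was at 1.049 without replicate 1 and 1.43 without replicate 2, Lpl at 2.58 and 2.73 and Cideb at -0.83 in both cases. Over all alternatives to the processing, the refed value of Cideb ranged from -1.26 to -0.61.

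Plin4, a perilipin that coats nascent droplets, was at 26.8 and 13.5 CPM in fasted WT and at 14.5 and 21.8 CPM in fasted HRD1Alb samples, which overlapped. Refed samples were at 14.7 and 10.3 CPM in WT and at 5.94 and 4.54 CPM in HRD1Alb samples, with both HRD1Alb samples lower. The log2 difference was -0.15 in fasted (SE 0.37, adjusted p = 0.88) and -1.26 in refed liver (SE 0.38, adjusted p = 0.072), and neither was called. The sign of the fasted value turned to 0.23 when library totals alone were used for scaling, and also without fasted WT replicate 1 (0.43) or fasted HRD1Alb replicate 1 (0.11). The refed value was -1.47 (adjusted p = 0.033) without refed HRD1Alb replicate 1 and -1.08 without replicate 2.

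The CIDE family consists of droplet and lipoprotein assembly proteins: CIDEC promotes the fusion of droplets into larger ones, CIDEA does so in brown fat and in steatotic liver, and CIDEB, the form of normal hepatocytes, takes part in loading lipid onto very-low-density lipoprotein. Cidec was at 163 and 127 CPM in fasted WT and at 90.4 and 67.7 CPM in fasted HRD1Alb samples, with no overlap. After refeeding WT samples were at 45.6 and 31.1 CPM and HRD1Alb samples at 16.9 and 37.2 CPM, which overlapped. The log2 difference was -0.88 in fasted (SE 0.38, adjusted p = 0.28) and -0.51 in refed liver (SE 0.38, adjusted p = 0.37). Cidec was thus not called between genotypes, and its refed value depended on 1 library. It was -0.05 (adjusted p = 0.89) without refed HRD1Alb replicate 1 and -1.19 (adjusted p = 0.026) without replicate 2.

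Cideb (chromosome 14, 55754050 to 55758458, minus strand) was at 42.1 and 47.0 CPM in fasted WT and at 33.6 and 33.0 CPM in fasted HRD1Alb samples. After refeeding it was at 47.7 and 48.9 CPM in WT and at 27.2 and 27.2 CPM in HRD1Alb samples. Replicates lay close together in every group, and all 4 HRD1Alb samples were lower than all 4 WT samples. Cideb fell by 0.83 on the log2 scale in refed liver (SE 0.14, adjusted p = 0.019), and its fasted difference of -0.42 (SE 0.14, adjusted p = 0.18) was not called. Scaled by library totals alone, the refed value was -0.61 (adjusted p = 0.052) and the fasted value -0.04. Cideb shares 1451 bases with Nop9, a gene on the other strand that was between 20.9 and 35.2 CPM, and since the files do not state whether counting used strand, reads of the shared stretch could have gone to either. Per length, Cidec was 2.67 and 1.87 times as high as Cideb in fasted WT and 1.86 and 1.42 times in fasted HRD1Alb samples, whereas in all 4 refed samples the ratio was below 1, between 0.43 and 0.94.

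Cidea was at the edge of detection. It had 3 and 3 counts in fasted WT, 14 and 12 in fasted HRD1Alb, 6 and 0 in refed WT and 6 and 5 in refed HRD1Alb samples. Exact 95% Poisson intervals were 0.62 to 8.77 counts for a count of 3, 7.65 to 23.5 for 14 and 6.20 to 21.0 for 12, and they cover counting error only. For the count of 0 the interval was 0 to 3.69 counts. Cidea was not called in any comparison (fasted adjusted p = 0.37, refed adjusted p = 0.76), and its refed groups overlapped. It also shares 500 bases with a gene on the other strand.

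Counted together, 2 of the 10 genes rose and none fell in fasted HRD1Alb liver (Cd36 and Lpl), where 1.35% of all genes tested were called, 0.921% higher and 0.433% lower. In refed liver 4 rose (Cd36, Lpl, Fabp4 and Fabp7) and 1 fell (Cideb), where 11.9% of all genes were called, 7.09% higher and 4.84% lower. The median log2 difference over the 10 was 1.07 in fasted and 0.86 in refed liver, against -0.02 and 0.04 over all genes. Scaled by library totals alone, the medians over all genes were 0.36 and 0.26, and the share of called genes that were higher went from 68.0% to 94.7% in fasted and from 59.5% to 87.5% in refed liver. In each state both HRD1Alb samples lay above both WT samples for 6 members and below for 2. Over all genes tested this was so for 30.6% and 34.2% in fasted and for 30.7% and 30.1% in refed liver. By role, the uptake genes and the binding proteins had positive differences throughout, while the droplet coat gene Plin4 and the CIDE genes Cidec and Cideb had negative ones, except that the fasted value of Plin4 turned positive with library totals alone and without replicate 1 of either fasted group. Pparg and Cidea had positive values that were not called, and that of Cidea in refed liver was -0.01095 with offsets for exon length.

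The calls changed when samples were left out of the fit. Leaving out any of the 4 fasted samples left no member called in fasted liver (Cd36 between 2.11 and 2.48 on the log2 scale, adjusted p from 0.057 to 0.19), and leaving out either refed WT sample left Cd36 alone (Lpl adjusted p = 0.058 and 0.059). Without either refed HRD1Alb sample 6 were called, while the calls over all genes went from 194 to as many as 3159. For the refed comparison none was called without either refed WT sample (Lpl adjusted p = 0.082 and 0.069) or with only the 4 refed samples in the fit (Lpl adjusted p = 0.063). There were 2 called without either fasted HRD1Alb sample and 3 without fasted WT replicate 2, and 6 without either refed HRD1Alb sample. The log2 difference of Lpl in refed liver stayed between 2.44 and 2.92 in these fits. An exact permutation test of 2 against 2 samples cannot go below p = 0.333, so no single gene was tested that way.

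**Figure D3:**
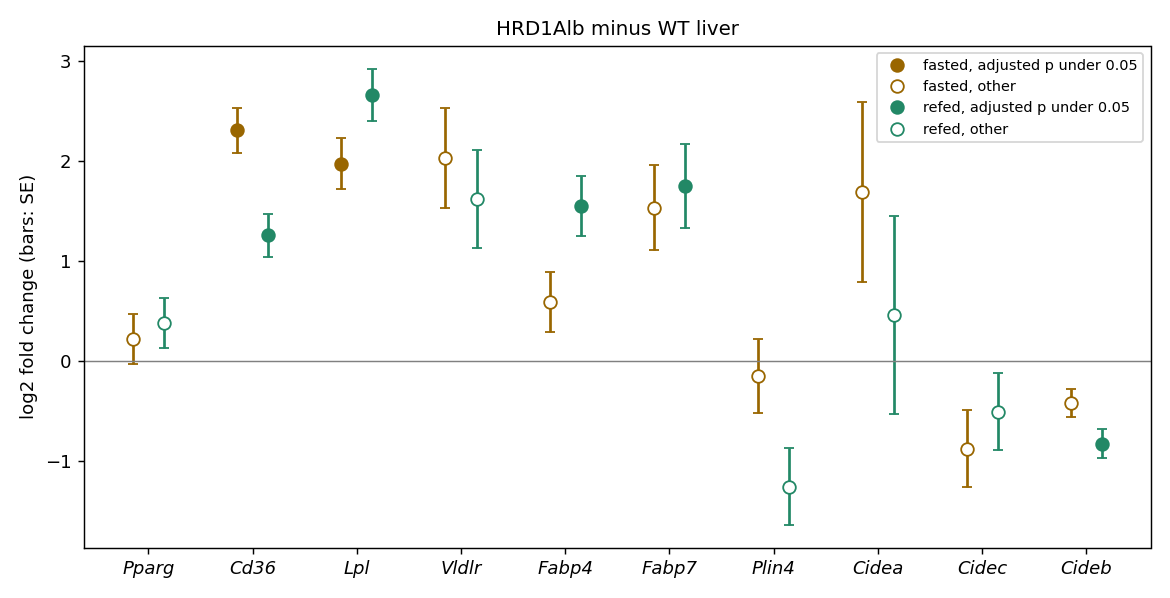
Log2 fold change HRD1Alb minus WT for each gene in fasted and refed liver, with bars for 1 SE and filled points for an adjusted p under 0.05 (edgeR, all 8 samples). Cd36 and Lpl are filled in both states, Fabp4, Fabp7 and Cideb in refed liver, and Pparg sits at 0.22 and 0.38.

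Summed markers of Kupffer cells, monocyte-derived macrophages and hepatic stellate cells were higher in HRD1Alb than in WT samples in both states. They did not follow the members sample by sample. The Kupffer sum in refed HRD1Alb liver was 250 CPM in replicate 1 and 592 CPM in replicate 2. In replicate 2 Cd36, Lpl and Vldlr were the lower of the pair and Fabp4 and Fabp7 the higher. The summed level of 8 Kupffer cell markers was between 98.5 and 112 CPM in fasted WT and between 269 and 356 CPM in fasted HRD1Alb samples, and between 114 and 115 CPM in refed WT and 250 and 592 CPM in refed HRD1Alb samples. All 8 Kupffer markers were higher in both HRD1Alb samples in each state, and 7 of the 8 were called higher in refed liver and 1 of the 8 in fasted liver. The defining marker Clec4f was at 38.9 and 30.4 CPM in fasted WT and at 101 and 82.0 CPM in fasted HRD1Alb samples, and at 35.7 and 38.4 CPM in refed WT and 61.2 and 139 CPM in refed HRD1Alb samples. Markers of monocyte-derived macrophages summed to between 5.09 and 6.67 CPM in fasted WT, 23.2 and 45.4 CPM in fasted HRD1Alb, 5.36 and 5.44 CPM in refed WT and 39.1 and 46.4 CPM in refed HRD1Alb samples, with 2 of 8 called higher in fasted and 6 of 8 in refed liver. Of this list Itgam and Ly6c2 were not called in either state, and Ly6c2 overlapped between genotypes in both.

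Hepatic stellate cell markers summed to between 183 and 368 CPM in fasted WT and 443 and 451 CPM in fasted HRD1Alb samples, and to between 169 and 208 CPM in refed WT and 358 and 497 CPM in refed HRD1Alb samples (0 of 7 and 3 of 7 called higher). Markers of neutrophils and lymphocytes stayed low, at most 3.66 CPM in all fasted samples and at most 2.73 CPM in refed WT, and reached 5.32 and 11.8 CPM in refed HRD1Alb samples (2 of 6 called higher). Endothelial markers were between 139 and 183 CPM in all samples and cholangiocyte markers between 9.11 and 22.8 CPM, with none called. Adipocyte markers, of interest because Fabp4, Plin4, Cidec, Cd36 and Lpl are all adipocyte genes, summed to at most 0.525 CPM in any sample and none of the 6 passed the filter on low counts. Lep was at 0 in all 8 samples, Adipoq at most 0.075 CPM and Plin1 at most 0.050 CPM. Skeletal muscle markers summed to at most 1.65 CPM. The summed level of hepatocyte markers, of which Alb was the highest, was lower in HRD1Alb samples, between 84231 and 85183 CPM in fasted HRD1Alb against 130199 to 141978 CPM in fasted WT, and between 61854 and 99868 against 103812 to 110655 CPM when refed (0 of 8 and 1 of 8 called lower). Both HRD1Alb samples lay below both WT samples for 6 of the 8 in fasted and 5 of the 8 in refed liver, while Tat overlapped in both states and Apoa1 and Ttr in refed liver. The part of macrophage, stellate cell or hepatocyte content in the differences of Cd36, Lpl, Vldlr, Fabp4 and Fabp7 was not tested.

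**Figure D4:**
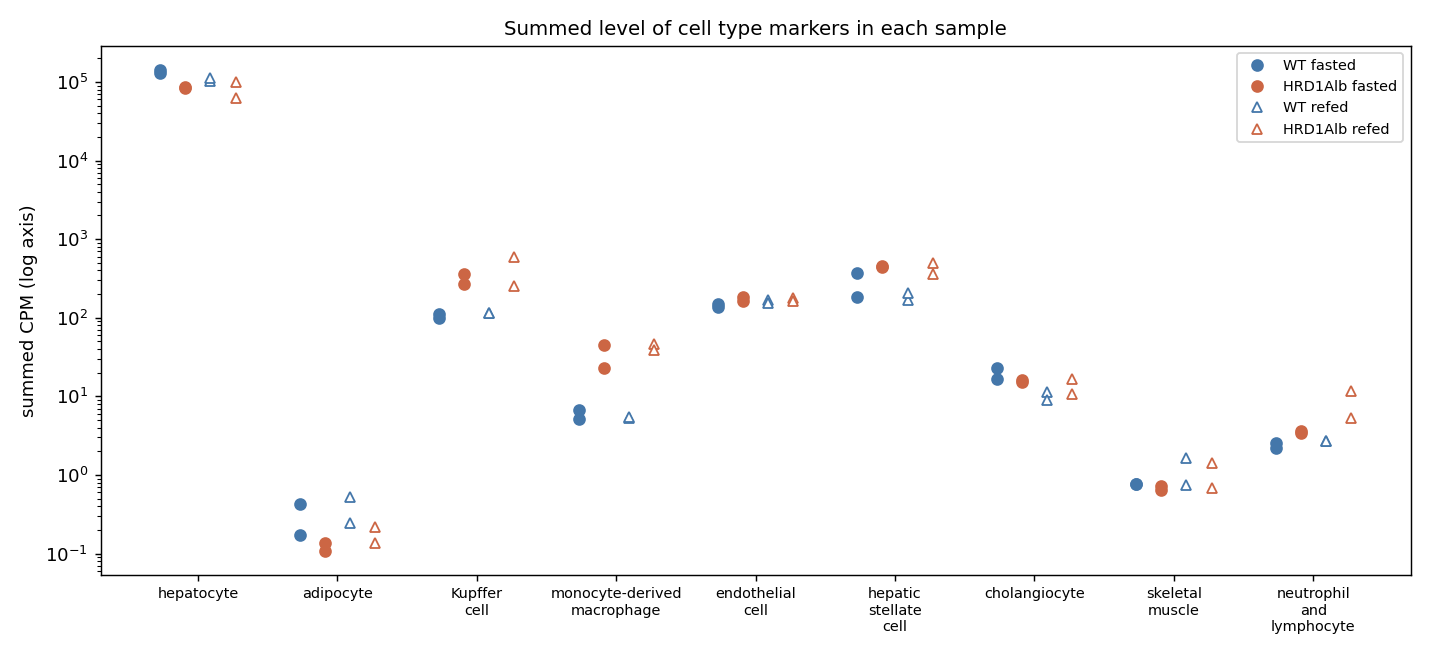
Summed CPM of each list of cell type markers in each sample, on a log axis, with filled circles for fasted and open triangles for refed samples. Kupffer cell, macrophage and stellate cell sums are higher in HRD1Alb samples of both states, and adipocyte and muscle sums stay near the bottom of the axis in all 8 samples.

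Refeeding for 4 h was compared within each genotype, and the members that passed were Plin4, Cidec and Fabp4, in HRD1Alb liver. In WT liver none of the 10 genes was called by edgeR, where 2.61% of all genes were (1.2% higher and 1.41% lower, 374 genes, with 2339 at an unadjusted p under 0.05). Both refed WT samples lay above both fasted ones for 4 members and below for 1, as for 30.8% and 29.6% of all genes. Of the members 1 had an unadjusted p under 0.05, Cidec, and it alone was called by DESeq2 and by limma-trend. Cidec went from 163 and 127 CPM to 45.6 and 31.1 CPM in WT liver, a log2 difference of -1.92 (SE 0.39, adjusted p = 0.054), with no overlap. Leaving out either refed HRD1Alb sample brought its adjusted p to 0.0025 and 0.0026.

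In HRD1Alb liver 3 of the 10 genes were called on refeeding, 1 higher and 2 lower, where 10.5% of all genes were called, 5.43% higher and 5.05% lower. Both refed samples lay above both fasted ones for 3 members and below for 5, against 29.2% and 29.5% of all genes. Plin4 fell by 1.79 on the log2 scale (SE 0.39, adjusted p = 0.031) and Cidec fell by 1.55 (SE 0.39, adjusted p = 0.048), while Fabp4 rose by 1.18 (SE 0.30, adjusted p = 0.049). For Plin4 and Fabp4 the refed samples did not overlap the fasted ones in HRD1Alb liver, whereas in WT liver they did (log2 differences -0.68 and 0.22, adjusted p = 0.44 and 0.81). With offsets for exon length the refeeding difference of Fabp4 in HRD1Alb liver was 0.55 (adjusted p = 0.13), and without refed HRD1Alb replicate 2 it was 0.76 (adjusted p = 0.058) and that of Cidec -2.23 (adjusted p = 0.0036). None of the 3 was called without either fasted HRD1Alb or either refed WT sample (Plin4 adjusted p from 0.067 to 0.21), Plin4 alone was called without either fasted WT sample, and 5 members were called without refed HRD1Alb replicate 1, where Cd36 passed at -0.78 (adjusted p = 0.014) and Fabp7 at 1.27 (adjusted p = 0.012).

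Lpl, Vldlr and Pparg were not called on refeeding in either genotype. Their log2 differences ranged from -0.36 (Lpl, adjusted p = 0.56) to 0.75 (Vldlr, adjusted p = 0.53, and from 0.23 to 1.63 with 1 sample left out) in WT liver and from 0.30 (Pparg, adjusted p = 0.43) to 0.35 (Vldlr, adjusted p = 0.64) in HRD1Alb liver. Cd36 was not called either. Its log2 difference on refeeding was 0.47 in WT (SE 0.22, adjusted p = 0.34) and -0.58 in HRD1Alb liver (SE 0.22, adjusted p = 0.12), with no overlap between fasted and refed samples in either genotype. Cideb, also not called and without overlap, was at 0.12 in WT (adjusted p = 0.79) and -0.29 in HRD1Alb liver (adjusted p = 0.20). Whether refeeding acted differently in the 2 genotypes was tested as the interaction, and no member passed, nor did any other gene of the 14328 by edgeR (0.0%, with 1209 at an unadjusted p under 0.05) or by limma-trend, while DESeq2 called 95 genes and no member. Of the members Cd36 alone had an unadjusted interaction p under 0.05 by edgeR (log2 -1.05, SE 0.30, adjusted p = 0.56), and without refed HRD1Alb replicate 1 it and Fabp4 were called (-1.26, adjusted p = 0.0096, and 1.28, adjusted p = 0.016), with 4878 genes called in all.

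**Figure D5:**
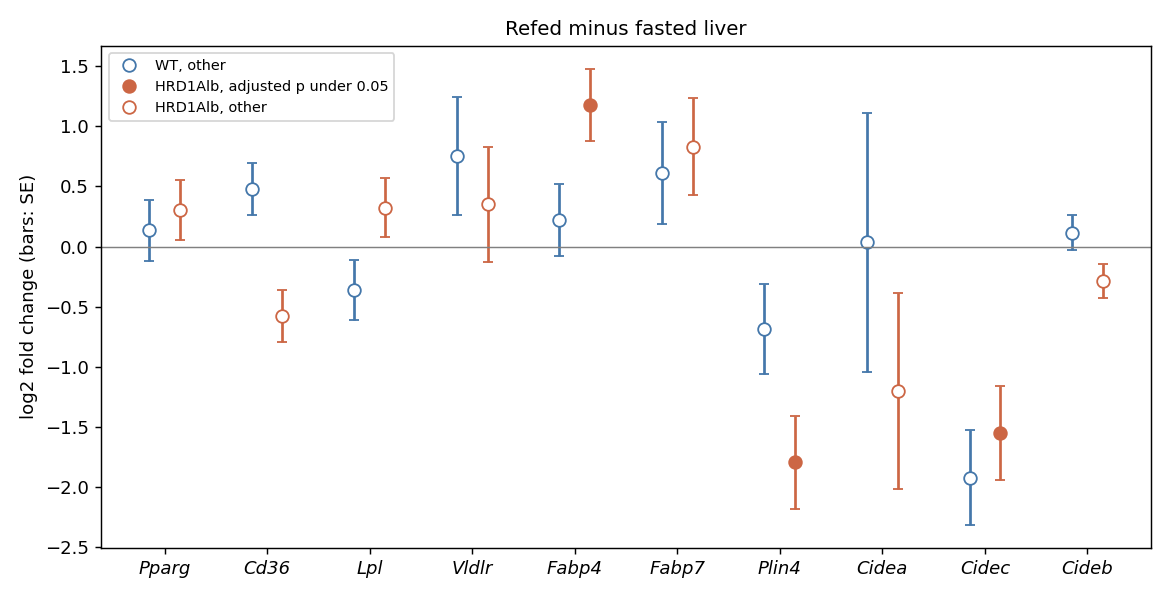
Log2 fold change refed minus fasted for each gene in WT and HRD1Alb liver, with bars for 1 SE and filled points for an adjusted p under 0.05 (edgeR, all 8 samples). Plin4 and Cidec lie below 0 in both genotypes, and Cd36 lies above 0 in WT (0.47) and below 0 in HRD1Alb liver (-0.58).

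Genes that act beside the members were taken from 6 lists by function. Of 12 other fatty acid and lipoprotein uptake genes none was called in fasted liver and 2 fell in refed HRD1Alb liver, with a median log2 difference of -0.14 in each state. Slc27a2, a fatty acid transporter and very-long-chain acyl-CoA synthetase, fell by 0.86 (SE 0.17, adjusted p = 0.025), from 2329 and 2121 CPM in WT to 1243 and 1203 CPM in HRD1Alb samples. The uptake members Cd36 and Lpl rose in the same samples in which Slc27a2 fell.

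Among 13 partners of lipoprotein lipase, which stabilise, transport, activate or inhibit the enzyme, none was called in fasted liver, and 1 rose and 1 fell in refed HRD1Alb liver (median -0.08 and 0.22). Angptl4, a secreted inhibitor of lipoprotein lipase that fasting induces, was at 20.3 and 20.8 CPM in refed WT and at 60.4 and 69.2 CPM in refed HRD1Alb samples, a rise of 1.66 (SE 0.21, adjusted p = 0.010). Of 8 other fatty acid binding proteins 4 passed the filter on low counts and none was called in either state. Fabp1, the liver form, had log2 differences of -0.95 (adjusted p = 0.35) and -0.26 (adjusted p = 0.72).

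Of 14 other droplet coat and assembly genes 13 were tested and 1 was called, Hilpda, in both states (median of the list -0.20 and 0.08). Hilpda, a droplet protein that inhibits the triglyceride lipase ATGL and is induced by hypoxia and fatty acids, was at 3.79 and 4.84 CPM in fasted WT and at 14.4 and 11.8 CPM in fasted HRD1Alb samples, a rise of 1.60 (SE 0.22, adjusted p = 0.030). In refed liver it was at 2.40 and 2.63 CPM in WT and at 6.11 and 5.83 CPM in HRD1Alb samples, a rise of 1.25 (SE 0.22, adjusted p = 0.020). Plin2, the main droplet coat protein of hepatocytes, was not called (-0.26, adjusted p = 0.54, and 0.50, adjusted p = 0.12). Among 6 lipolysis genes none was called in fasted liver, and in refed HRD1Alb liver G0s2, another inhibitor of that lipase, rose by 1.40 (SE 0.36, adjusted p = 0.048) and Mgll, the monoacylglycerol lipase, fell by 0.66 (SE 0.17, adjusted p = 0.048).

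The list of PPARG partners and known targets had 17 genes, of which 15 were tested. None was called in fasted liver, and in refed HRD1Alb liver 3 rose and 4 fell (median -0.29 and -0.04). The related receptor Ppara, which drives fatty acid oxidation in hepatocytes, fell by 1.69 (SE 0.18, adjusted p = 0.0082), from 219 and 227 CPM in refed WT to 74.6 and 63.7 CPM in refed HRD1Alb samples. Acsl1, a long-chain acyl-CoA synthetase and target of PPAR receptors, fell by 1.37 (SE 0.21, adjusted p = 0.015), from 1919 and 1446 CPM to 697 and 606 CPM. Cebpd, a transcription factor upstream of Pparg in adipocyte differentiation, rose by 1.34 (SE 0.26, adjusted p = 0.024), from 2.22 and 1.81 CPM to 4.59 and 5.68 CPM. Known targets thus went both ways, with Angptl4 higher and Acsl1 lower in the same samples.

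The calls of these companion genes were also lost with samples left out. Hilpda in fasted liver was not called without any 1 of the fasted or refed WT samples (log2 from 1.44 to 1.82, adjusted p from 0.090 to 0.30). In refed liver Slc27a2, Angptl4, Hilpda, Mgll, G0s2, Ppara, Acsl1 and Cebpd were not called without either refed WT sample, with adjusted p from 0.084 (Ppara) to 0.255 (Mgll). Slc27a2, Mgll and G0s2 were not called without any 1 of the 4 fasted samples either, nor Hilpda and Cebpd without either fasted HRD1Alb sample, nor Cebpd without fasted WT replicate 2 (adjusted p = 0.051). The refed value of G0s2 was 1.86 without refed HRD1Alb replicate 1 and 0.72 without replicate 2.

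For 5 members the genes with the most similar pattern over the 8 samples were found by the root mean square difference of log2 CPM after each gene was centred on its own mean, among 11928 genes with a mean of at least 1 CPM. This distance is a description over 8 samples that share the same libraries. Nearest to Pparg were Arhgap18 (0.10), Alcam (0.11) and Shq1 (0.13), none of them called between genotypes in either state. Nearest to Cd36 were Gltp (0.23), Sh3kbp1 (0.26) and Itgb2 (0.27). Nearest to Lpl were Src (0.28), Csrp1 (0.28) and Clec7a (0.30), and nearest to Vldlr were Atp6v0d2 (0.30), Chek1 (0.35) and Sept6 (0.36). Nearest to Cidec were Acacb (0.30), Sun2 (0.31) and Atg16l2 (0.32), and Acacb is an acetyl-CoA carboxylase of the mitochondrial surface. Among the members themselves Cd36 was nearest to Vldlr (0.51) and Lpl (0.54), and Cidec to Plin4 (0.67). Pparg was at a distance of 0.81 from Cd36, 1.03 from Lpl and 1.24 from Cidec.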

How the data were processed

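Liver RNA was sequenced in 8 samples. The deposited values are whole-number read counts per gene symbol, 1 file per sample, made by the authors without normalization. The paper names ERANGE for counting, whereas the submitters' processing notes list cutadapt, STAR, HTSeq and DESeq2 with build mm10, so which tool made the counts is unsettled, and strand use is not given in the sources used here. Counts were tested with edgeR 4.0.16 in R 4.3.3 (TMM, quasi-likelihood F test, 1 coefficient per group over all 8 samples, Benjamini-Hochberg over 14328 genes). The filter was filterByExpr with a minimum count of 10 and a total of 15, and called means an adjusted p under 0.05. The script was tested on simulated data with less spread between replicates than these data. That test checks the code and not how many real differences are found here. Alternatives were size-factor (RLE) scaling, library totals, DESeq2 1.42.0, limma-trend (limma 3.58.1), other filters, offsets for exon length, a replicate block and each sample left out; library totals were added after the data were seen. The members and gene lists were chosen with earlier results of these data known. All 10 members are named. Named from each companion list are the called genes, at most 4 per list and genotype comparison by smallest p, except some that are not reported here, and for 5 members the 3 genes nearest in pattern. Plin2, Fabp1 and the single markers were named after their values were seen. Exon lengths and positions are from GENCODE M21 and promoters from RefSeq (GRCm38.p6). 2 listed genes were found under older symbols.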

Additional observations from a re-analysis of the deposited data

Results flagged for a closer look

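For Cd36 both refed WT samples were above both fasted WT samples, and both refed HRD1Alb samples were below both fasted HRD1Alb samples. Neither refeeding difference was called (log2 0.47, adjusted p = 0.34 in WT and -0.58, adjusted p = 0.12 in HRD1Alb liver), and the difference between them, tested as the interaction, was -1.05 (adjusted p = 0.56) and did not pass. The samples of Cideb were placed in the same way, at 0.12 (adjusted p = 0.79) in WT and -0.29 (adjusted p = 0.20) in HRD1Alb liver, with an interaction of -0.41 (adjusted p = 0.60). None of these passed.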

How the results depend on the processing

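Members called were recounted under each alternative. In fasted liver (2 members) there were 4 with length offsets, 6 with only the 4 samples compared, 4 with DESeq2 and 0 to 6 with 1 sample left out. In refed liver (5 members) there were 7 with DESeq2, adding Vldlr and Plin4, 0 with only the 4 samples and 0 to 6 with 1 sample left out. For refeeding in WT liver (0 members) there was 1, Cidec, without the filter on low counts, with length offsets, with these and the replicate block, with only the 4 samples, with limma-trend and with DESeq2, and 0 to 1 with 1 sample left out. For refeeding in HRD1Alb liver (3 members) there was 1 with RLE scaling, 1 with the replicate block, 0 with only the 4 samples and 0 to 5 with 1 sample left out. For the interaction (0 members) there were 0 to 2 with 1 sample left out. The cause of these differences was not tested. The replicate numbers share only a label. Deviations of same-numbered samples correlated between 0.016 and 0.18, not above 0.1 in every pair, and the replicate block left 2, 4, 0, 1 and 0 members called in the 5 comparisons in this order.

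Signs changed for values that were not called. In fasted liver Plin4 was 0.23 with library totals and -0.53 to 0.43 with 1 sample left out, and Pparg -0.074 to 0.60. In refed liver Cidea was -0.01095 with length offsets and -0.49 to 5.35 with 1 sample left out. On refeeding in WT liver Cidea was -0.051 with the replicate block, -0.0608 with length offsets, -0.17 with both and -0.66 with limma-trend, and with 1 sample left out -4.86 to 0.98, while Pparg ranged from -0.15 to 0.52 and Lpl from -0.64 to 0.0074. In HRD1Alb liver Vldlr ranged from -0.33 to 0.81. For the interaction Fabp7 was -0.24 with length offsets and -0.23 with these and the replicate block. With 1 sample left out it ranged there from -0.42 to 0.67, Vldlr from -1.28 to 0.12, Pparg from -0.22 to 0.45, Cidec from -0.31 to 0.83 and Cidea from -2.18 to 3.66. Fitted values of Cidea rest on 0 to 14 counts per sample and depend on the prior count. Of the other values of the members, 65 lost and 37 gained a call and 754 kept both direction and call. Of the values of the companion genes, 78 lost a call and 120 kept both.

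Over all genes the calls ranged from 119 to 2033 in fasted liver (194 as reported) and from 0 to 3159 with 1 sample left out. In refed liver (1709) they ranged from 0 to 3178 and from 1 to 7705. On refeeding they ranged in WT liver (374) from 238 to 1882 and from 0 to 2508, and in HRD1Alb liver (1501) from 0 to 2921 and from 15 to 7496. For the interaction (0) they ranged from 0 to 95 and from 0 to 4878. At this depth Cidea stayed near the lower limit of detection.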
